A study of Mus musculus with 8 samples.

Results

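The genes described here encode the proton pump that acidifies lysosomes, accessory proteins of the pump, and the cathepsin proteases. They also encode the membrane proteins LAMP, SCARB2 and LAPTM, and the transcription factors TFEB, TFE3 and MITF. They were taken by symbol from the deposited count table of brown adipose tissue RNA-seq: every symbol that begins with Atp6v, Atp6ap or Laptm, every Cts symbol followed by 1 letter, Lamp1, Lamp2, Lamp3, Scarb2, Tfeb, Tfe3 and Mitf. The rule uses no measured value, and it found 54 of the 23372 genes in the table. Where a symbol had several transcript rows, the row with the highest total over the 8 libraries was kept; 8 of the 54 genes had several, in 66 rows in all.

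Brown adipose tissue came from mice on a C57BL/6 N background aged 10 weeks. The 4 control samples (511, 514, 517 and 518) came from mice with floxed Lsd1 alleles, which are intact until Cre recombinase cuts them. For the 4 knockout samples (512, 513, 515 and 516) the floxed line had been crossed to Ucp1-Cre, in which the promoter of the brown fat gene Ucp1 drives Cre, so the deletion is aimed at brown fat cells, and other cells of the tissue are not targeted. The labels name neither Cre in the controls nor the sex of any mouse, and any effect of Cre itself cannot be told apart from that of the deletion. Each library carries a number of its own, and the labels do not say whether animals were pooled. Lsd1 (Kdm1a) is a histone demethylase. Below, values in 4 controls are in the order 511, 514, 517 and 518, and values in 4 knockouts in the order 512, 513, 515 and 516.

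Lysosomes degrade proteins, lipids and sugars taken up by the cell or delivered by autophagy. Their acid interior is made by the vacuolar proton pump (V-ATPase), whose V1 domain splits ATP outside the membrane and turns a rotor, and whose V0 domain carries protons through the membrane. Cathepsins are proteases that work at this acid pH, and LAMP proteins and SCARB2 line the membrane. TFEB, TFE3 and MITF bind an E-box with the core CACGTG, often written GTCACGTG in lysosomal gene promoters, and the kinase mTORC1 on the lysosome surface holds TFEB and TFE3 in the cytoplasm when nutrients are plentiful.

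Total counts over all rows were 33011022 to 38756920 per library. Kdm1a stood at 35.4 ± 1.5 CPM (each count per 1000000 counts of the library, scaled by TMM factors; mean ± SD, n = 4 libraries per group here and below) in controls and 13.1 ± 0.709 in knockouts (edgeR adjusted p = 2.65e-05), and every knockout library was below every control library. The 10 brown fat markers were all detected, with a summed level of 19859 to 26652 CPM in controls and 13379 to 15006 in knockouts; 6 fell and none rose. Skeletal muscle markers (16 genes, none at 0) summed to 357 to 7766 CPM in controls and 8812 to 19543 in knockouts. Control 514 held the lowest value. All 16 had a log2 fold change above 0 (0.77 to 2.44, median 1.54). For 11 of them every knockout lay above every control (15.8% over all tested genes). Only 1 was called higher at an adjusted p below 0.05 in edgeR (15.5% over all tested genes). Macrophage markers (15 of 16 found, none at 0) summed to 130 to 235 CPM in controls and 228 to 338 in knockouts. Of the 14 macrophage markers tested, 3 rose (21.4%, beside 15.5% over all tested genes) and none fell (18.9% over all tested genes). The part of these differences in the results below was not tested. In whole tissue, fewer cells of a type and less RNA per cell cannot be told apart.

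Lower transcripts of the pump's subunits were the most frequent result among these genes, with one subunit, Atp6v0e2, at 4.36 times its control level. Of the 54 genes, 42 had enough counts to be tested, and 13 were lower and 3 higher in the knockout at a Benjamini-Hochberg adjusted p below 0.05 in edgeR's quasi-likelihood test over all 14186 tested genes. Over those 14186 genes the same rule called 18.9% lower and 15.5% higher (34.4% in either direction), whereas 31.0% and 7.14% of the 42 were called. The 13 lower genes were 6 of 10 tested V1 subunits, 4 of 8 V0 entries, the protease gene Ctsd, and the membrane protein genes Lamp1 and Scarb2. The 8 V0 entries include the pseudogene row Atp6v0c-ps2, which was not called. Those that rose were Atp6v0e2, Ctsa and Ctso. All 4 knockout libraries lay below all 4 controls for 12 of the 42 genes and above them for 3 (over all tested genes, 19.7% and 15.8%). The median log2 fold change of the 42 was -0.091, beside -0.012 over all tested genes.

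The counts depended on how libraries were scaled. The TMM factor of a control lay between 0.898 and 0.961 and that of a knockout between 1.05 and 1.1. Relative log expression factors called 12 of the 42 lower and 3 higher (of all genes 17.6% and 15.9%). Upper quartile factors moved the median of all genes by 0.10 on the log2 scale and called 6 lower and 6 higher (11.4% and 20.6%). Library sizes alone moved it by 0.20 and called 4 lower and 11 higher (6.53% and 28.8%). The share of all calls that were higher went from 45.0% with TMM factors to 64.3% and 81.5%. The median over the 42 genes turned positive under both, to 0.012 and 0.11, where the median of all genes stood at 0.091 and 0.19. Under every one of the 15 alternative settings run, including leaving out each library, 7 of the 16 calls held: Atp6v0a2, Atp6v0b, Atp6v0e and Ctsd lower, and Atp6v0e2, Ctsa and Ctso higher. In the authors' deposited table, 7 of the 13 lower genes and all 3 higher genes also have an FDR below 0.05 (13% of all tested genes are lower and 13.4% higher there). Its FDR is 0.0662 to 0.179 for the other 6, Atp6v1d, Atp6v1e1, Atp6v1f, Atp6v1g1, Lamp1 and Scarb2.

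**Figure D1:**
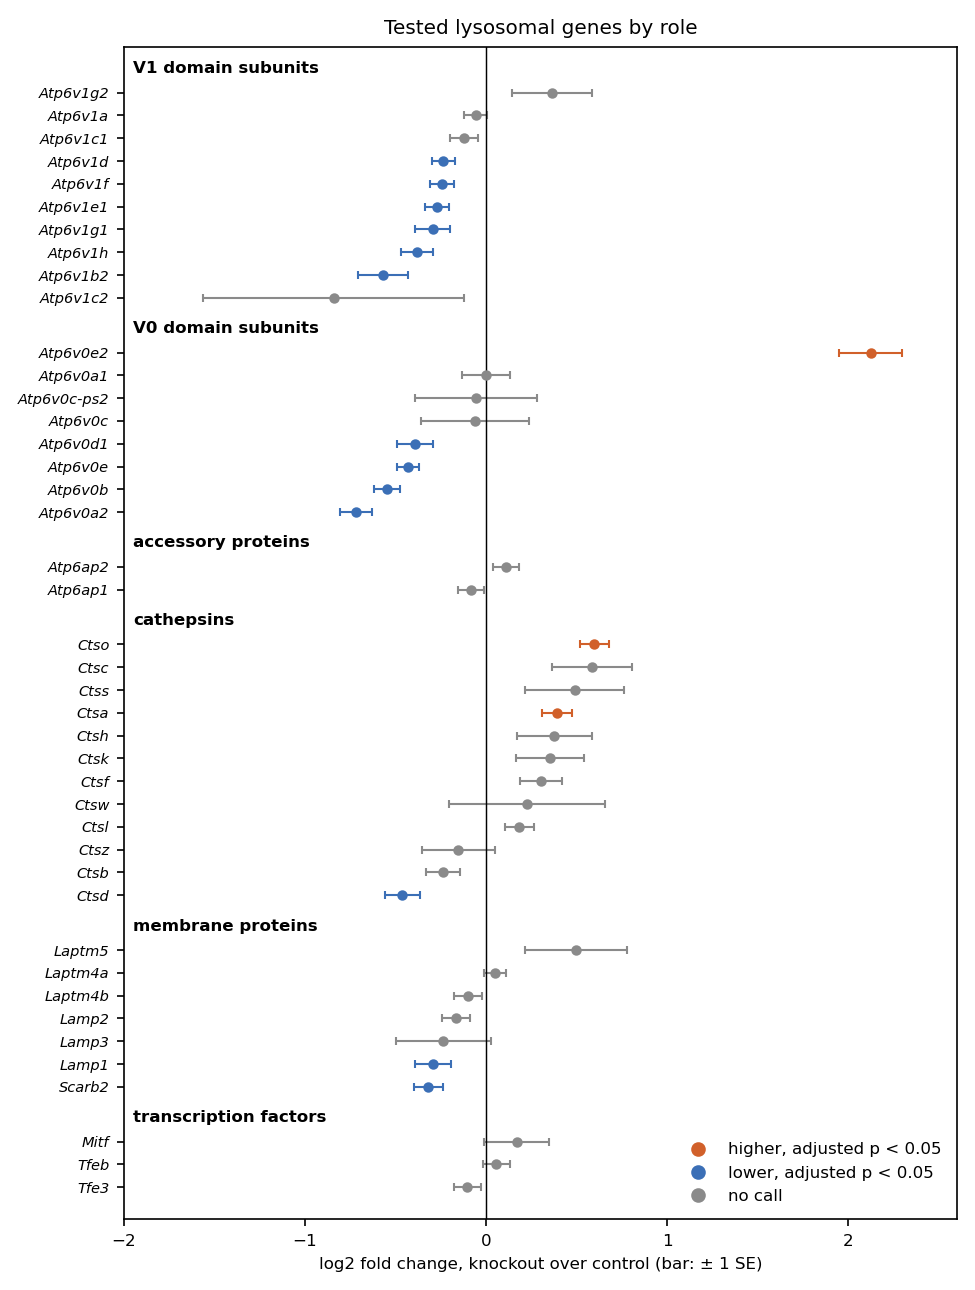
Log2 fold change of knockout over control for the 42 tested genes, grouped by role, from edgeR with bars of 1 SE; orange points were called higher, blue points lower and grey points not called. Atp6v0e2 lies alone at 2.12, most pump subunits lie to the left of 0 and 9 of the 12 cathepsins to the right.

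**Figure D2:**
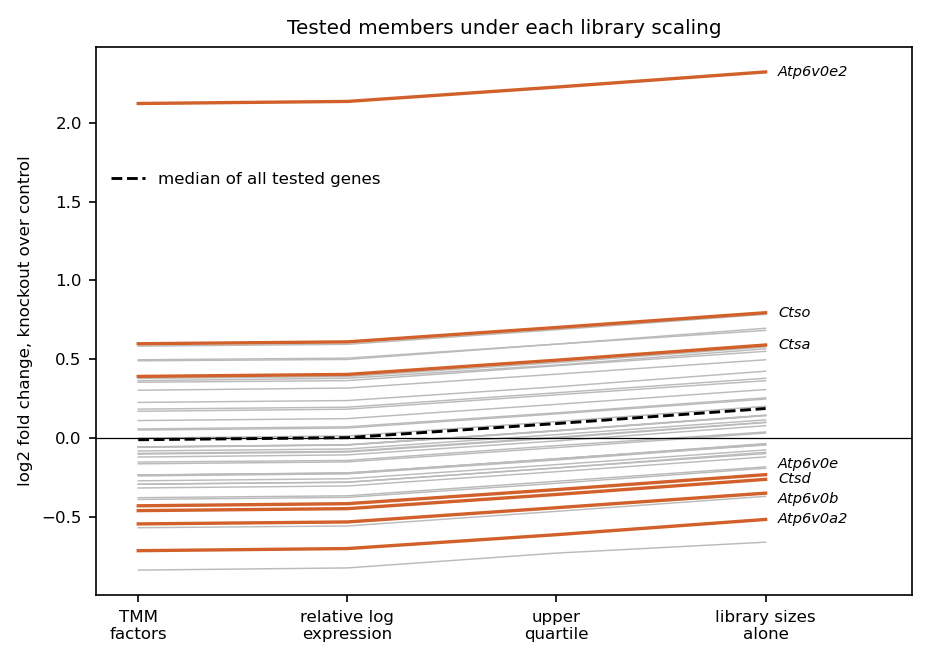
Log2 fold change of each of the 42 tested genes (1 line each) under 4 ways of scaling the libraries, with the median of all tested genes as a dashed line; orange lines are the 7 genes called under every setting. All lines move up together as the scaling changes, and the 7 orange lines stay on their side of 0.

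The promoters of several of these genes hold the TFEB type of E-box, and sequences are shown for those with its 8-base form because genes with it moved in both directions. RefSeq promoter windows (GRCm38.p6, 250 bases before to 50 after the start site) were matched by symbol for 32 of the 42 tested genes, in 41 windows. CACGTG, which reads the same on both strands, occurred in 22.0% of the 41 windows (9 genes) and in 7.15% of all 32851 windows of that table. Unlike the 41, the full set of windows also covers genes that were not tested here. GTCACGTG on either strand, which contains CACGTG, occurred in 12.2% of the 41 windows (5 genes) and in 2.25% of all windows. The 5 genes were Atp6v0b, Atp6v0d1, Ctsd and Lamp1, called lower, and Ctsa, called higher; Atp6v0e, Atp6v1a, Ctsf and Ctsl held only the core. The windows lie at chr4:117887280-117887579 (minus strand) for Atp6v0b, chr8:105566015-105566314 (minus) for Atp6v0d1, chr7:142387778-142388077 (minus) for Ctsd, chr8:13158911-13159210 (plus) for Lamp1, chr2:164833523-164833822 (plus) for Ctsa and chr6:48537319-48537618 (plus) for Atp6v0e2, which holds neither motif and is shown beside them as the gene of the 42 with the largest rise. Capitals mark CACGTG and, where present, the GT before or AC after it that completes the 8-base form; each sequence is written 5′ to 3′ on the gene's strand.
Atp6v0b: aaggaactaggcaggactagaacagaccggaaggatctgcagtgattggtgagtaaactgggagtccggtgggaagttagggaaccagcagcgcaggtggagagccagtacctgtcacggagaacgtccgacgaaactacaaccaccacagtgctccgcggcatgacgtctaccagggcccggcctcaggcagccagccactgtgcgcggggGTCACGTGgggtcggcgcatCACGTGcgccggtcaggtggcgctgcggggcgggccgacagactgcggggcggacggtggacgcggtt
Atp6v0d1: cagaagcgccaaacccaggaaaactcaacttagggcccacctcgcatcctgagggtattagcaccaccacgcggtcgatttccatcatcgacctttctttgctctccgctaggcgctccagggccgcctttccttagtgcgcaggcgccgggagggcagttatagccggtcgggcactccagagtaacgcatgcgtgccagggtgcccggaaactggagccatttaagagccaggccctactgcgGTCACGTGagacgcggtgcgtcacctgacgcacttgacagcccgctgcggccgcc
Ctsd: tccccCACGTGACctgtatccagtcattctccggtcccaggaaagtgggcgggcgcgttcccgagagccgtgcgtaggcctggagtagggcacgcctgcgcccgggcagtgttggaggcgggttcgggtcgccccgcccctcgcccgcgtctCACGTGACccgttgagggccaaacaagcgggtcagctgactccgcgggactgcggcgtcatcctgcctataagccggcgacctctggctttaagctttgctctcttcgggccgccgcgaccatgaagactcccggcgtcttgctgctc
Lamp1: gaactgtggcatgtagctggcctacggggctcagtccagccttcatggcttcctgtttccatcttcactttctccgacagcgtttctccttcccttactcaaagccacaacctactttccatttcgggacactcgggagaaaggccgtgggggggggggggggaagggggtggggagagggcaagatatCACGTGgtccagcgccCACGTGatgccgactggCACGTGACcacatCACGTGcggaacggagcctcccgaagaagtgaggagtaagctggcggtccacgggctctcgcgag
Ctsa: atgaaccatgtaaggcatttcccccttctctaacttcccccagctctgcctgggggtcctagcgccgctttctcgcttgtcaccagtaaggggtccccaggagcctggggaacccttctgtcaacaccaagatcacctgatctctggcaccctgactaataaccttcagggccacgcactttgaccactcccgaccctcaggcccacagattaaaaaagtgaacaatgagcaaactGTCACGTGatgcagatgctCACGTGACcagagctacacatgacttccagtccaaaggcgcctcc
Atp6v0e2: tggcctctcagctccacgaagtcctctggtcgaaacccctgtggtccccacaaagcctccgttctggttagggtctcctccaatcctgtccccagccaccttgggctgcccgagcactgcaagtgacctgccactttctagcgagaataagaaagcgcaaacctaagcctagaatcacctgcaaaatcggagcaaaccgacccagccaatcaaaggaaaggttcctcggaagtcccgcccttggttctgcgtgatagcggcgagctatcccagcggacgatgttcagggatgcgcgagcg
A match is a run of letters and no measured binding site. The Ctsd window has 2 copies of the 8-base form, as has the Ctsa window shown (its other window has none), although these genes were called in opposite directions.

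V1 subunits, which form the ATP-splitting head and its stalks, were called lower for 6 of the 10 tested and higher for none. Over all tested genes 18.9% were lower and 15.5% higher. The V1 median log2 fold change was -0.26, with values from -0.84 to 0.36. Atp6v1b2 encodes the B subunit of the head in most tissues. Its CPM was 182, 130.01, 195 and 195 in controls and 102, 132, 126 and 113 in knockouts. Control 514 stood apart at the level of knockout 513, so the groups overlapped, and the log2 fold change came to -0.57 ± 0.14 (± SE here and below; adjusted p = 0.0131 in edgeR). Atp6v1h, whose product regulates whether a free head splits ATP, had 89.3, 88.1, 90.7 and 108 CPM in controls and 69.5, 70.1, 69.2 and 80.6 in knockouts. All knockouts were below all controls, although the highest library of each group stood well above its other 3, and the log2 fold change was -0.38 ± 0.088 (edgeR adjusted p = 0.0105). Atp6v1e1 and Atp6v1g1 encode the paired subunits of the outer stalks. For Atp6v1e1 the CPM was 159, 176, 157 and 175 in controls and 139.5, 129.9, 139.6 and 143 in knockouts, without overlap, and the log2 fold change was -0.27 ± 0.067 (edgeR adjusted p = 0.0134). For Atp6v1g1 it was 59.6, 46.3, 47.7 and 45.7 in controls, where control 511 was highest, and 37.7, 43.6, 40.7 and 40.5 in knockouts, all lower (log2 fold change -0.29 ± 0.096, edgeR adjusted p = 0.0416).

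The D and F subunits form the central rotor shaft. Atp6v1d had 82.97, 80.97, 74.9 and 81.4 CPM in controls and 69.6, 63.02, 68.5 and 70.6 in knockouts, a log2 fold change of -0.24 ± 0.064 (edgeR adjusted p = 0.0202). Atp6v1f had 66.8, 73.3, 76.4 and 66.3 CPM in controls and 61.8, 60.1, 58.9 and 58.1 in knockouts, a log2 fold change of -0.24 ± 0.067 (edgeR adjusted p = 0.0226). In both genes every knockout was below every control. The catalytic subunit gene Atp6v1a was not called, at 149 ± 8.19 CPM in controls and 144 ± 4.57 in knockouts (log2 fold change -0.058 ± 0.063, edgeR adjusted p = 0.5), and neither were Atp6v1c1 (-0.12), Atp6v1c2 (-0.84) and Atp6v1g2 (0.36). The V1 calls rest on scaling: 2 of 6 held with upper quartile factors (Atp6v1b2 and Atp6v1h) and none with library sizes alone, where the 6 log2 fold changes stayed negative. Leaving out knockout 513 left 3 of the 6, with edgeR adjusted p = 0.063 for Atp6v1d, 0.0565 for Atp6v1f and 0.0591 for Atp6v1g1. The call of Atp6v1f was also lost when control 514, knockout 515 or 516 was left out (adjusted p = 0.0512, 0.0598 and 0.0625), and that of Atp6v1g1 when control 511 or 517 or knockout 512, 515 or 516 was left out (in edgeR, adjusted p = 0.0573, 0.056, 0.0964, 0.0865 and 0.0896).

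The V0 domain held the members with the firmest calls in both directions. Atp6v0e2 (chr6:48537569-48541800 in mm10) encodes the second form of the small membrane subunit e. It had 10.8, 7.78, 7.4 and 7.65 CPM in controls and 34.2, 30.2, 34.7 and 47.6 in knockouts. Its lowest knockout stood well above its highest control, control 511 was the highest of the controls and knockout 516 the highest of all, and the log2 fold change was 2.12 ± 0.17 (edgeR adjusted p = 0.000137). It was 1.97 to 2.33 under the alternative settings. The other form, Atp6v0e (chr17:26676396-26699646), went the other way, with 143, 144, 131 and 141 CPM in controls and 106, 101, 107 and 101 in knockouts, a log2 fold change of -0.43 ± 0.059 (edgeR adjusted p = 0.00104) and no overlap.

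Subunit a makes the channels through which protons enter and leave the rotor. Atp6v0a2 (chr5:124712208-124722146) had 53.4, 48.8, 55.4 and 51.6 CPM in controls and 35.3, 33.4, 31.2 and 27.3 in knockouts. No knockout came near the controls, and the log2 fold change of -0.72 ± 0.088 (edgeR adjusted p = 0.000629) was the lowest of the called pump genes. Atp6v0b (chr4:117884330-117887329), a proteolipid of the proton-carrying ring, had 96.3, 98.5, 106 and 116 CPM in controls and 73.1, 68.96, 72.2 and 71.01 in knockouts. The knockouts lay close together below all controls, with a log2 fold change of -0.55 ± 0.072 (edgeR adjusted p = 0.000829). Atp6v0d1, which joins the ring to the rotor shaft, had 78.8, 66.8, 69.7 and 66.8 CPM in controls and 57.8, 47.6, 48.9 and 60.8 in knockouts. These too did not overlap (log2 fold change -0.39 ± 0.099, edgeR adjusted p = 0.0152), but the call was lost with upper quartile factors (edgeR adjusted p = 0.0508) and with library sizes alone (0.116). Counting without strand adds reads of opposite genes. Over exons of the GENCODE annotation, 12.4% of Atp6v0a2 bases lie opposite 4930404A12Rik and 7.0% of Atp6v0b opposite Gm12841. Neither opposite gene is in the table analysed, and shares over annotated exons need not match the row counted. The counted Atp6v0a2 row is 1855 bases long, beside 3966 for Atp6v0a1, so its call covers that gene model only.

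**Figure D3:**
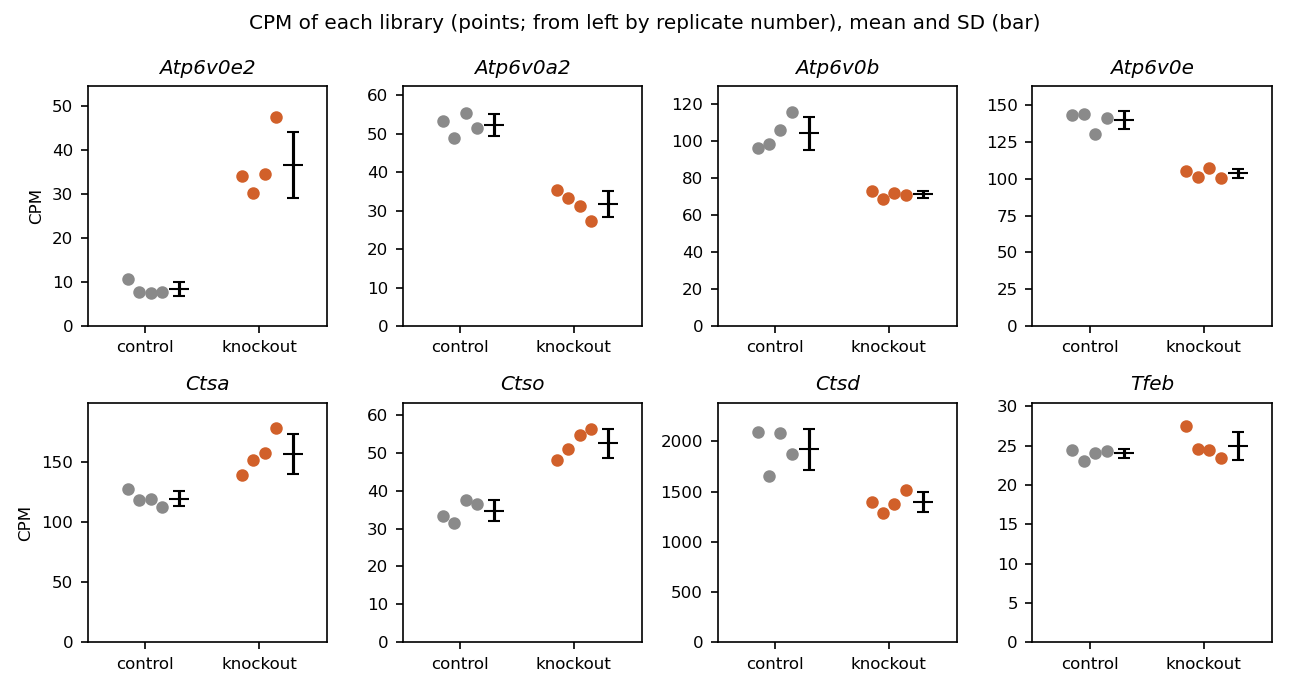
CPM of 8 genes in each of the 4 control (grey) and 4 knockout (orange) libraries, on axes that start at 0, with the mean and SD beside the points. The groups are apart for all but Tfeb, whose knockout points overlap the controls.

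Other V0 rows gave no usable contrast of the groups. Atp6v0c, the main proteolipid of the ring, had 24.7, 24.9, 12.7 and 13.8 CPM in controls and 13.03, 12.6, 23.8 and 23.6 in knockouts; it is described here after its values were seen. The libraries fell into 2 levels that cut across the groups: 511, 514, 515 and 516 were high and 512, 513, 517 and 518 low (log2 fold change -0.060 ± 0.30, edgeR adjusted p = 0.894). The row named Atp6v0c-ps2, a pseudogene, has the position of Atp6v0c on chromosome 17 in the deposited table, and its values of 20.3, 20.4, 9.6 and 11.1 CPM in controls and 9.78, 9.59, 20.03 and 19.7 in knockouts split the same way, so both rows are taken to hold the same reads. Without that row the tested genes number 41, of which the same 13 and 3 were called. Atp6v0a1 was at 84.2 ± 18.03 CPM in controls and 84.1 ± 1.94 in knockouts (log2 fold change -0.0015 ± 0.13, edgeR adjusted p = 0.995), with the SD of the controls far above that of the knockouts.

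Levels of different genes are compared per kilobase of transcript. Summed over the V1 subunits, the level was 548 ± 9.52 CPM per kilobase in controls and 453 ± 5.29 in knockouts, and over the V0 subunits, without the pseudogene row, 399 ± 14.3 and 313 ± 12.0. Knockout sums lay below every control in both domains. The V0 sum includes Atp6v0c, at 16.6 ± 5.82 CPM per kilobase in controls and 16.0 ± 5.49 in knockouts, whose 2 levels cut across the groups. These sums and the shares below were not tested. Atp6v0e was the highest pump gene in both groups, at 178 ± 7.85 CPM per kilobase in controls and 132 ± 4.0 in knockouts, where Atp6v0e2 was at 4.6 ± 0.866 and 20.1 ± 4.14. Atp6v0e2 thus made up 2.28 to 3.14% of the e forms in the controls and 11.4 to 16.9% in the knockouts, while both forms together were 182 ± 8.29 and 152 ± 4.52 CPM per kilobase. Among the a forms, Atp6v0a2 supplied 46.3 ± 3.40% in controls and 32.6 ± 3.20% in knockouts. Tcirg1, which encodes the a3 form and falls outside the symbol rule, supplied 19.1 ± 2.17% and 27.0 ± 1.99%, and Atp6v0a1 34.6 ± 5.12% and 40.4 ± 1.35%. For the first 2 of these shares no knockout library overlapped the controls, and for Atp6v0a1 control 511 lay within the knockout range. The shares divide by deposited lengths of 1855 bases for Atp6v0a2, 3966 for Atp6v0a1 and 2647 for Tcirg1. A length too short for a form would raise its share in both groups. Transcript shares do not show where in the cell a form of the pump works. Atp6v1g2 made up 6.17 ± 1.77% of the G forms in controls and 9.40 ± 0.924% in knockouts.

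**Figure D4:**
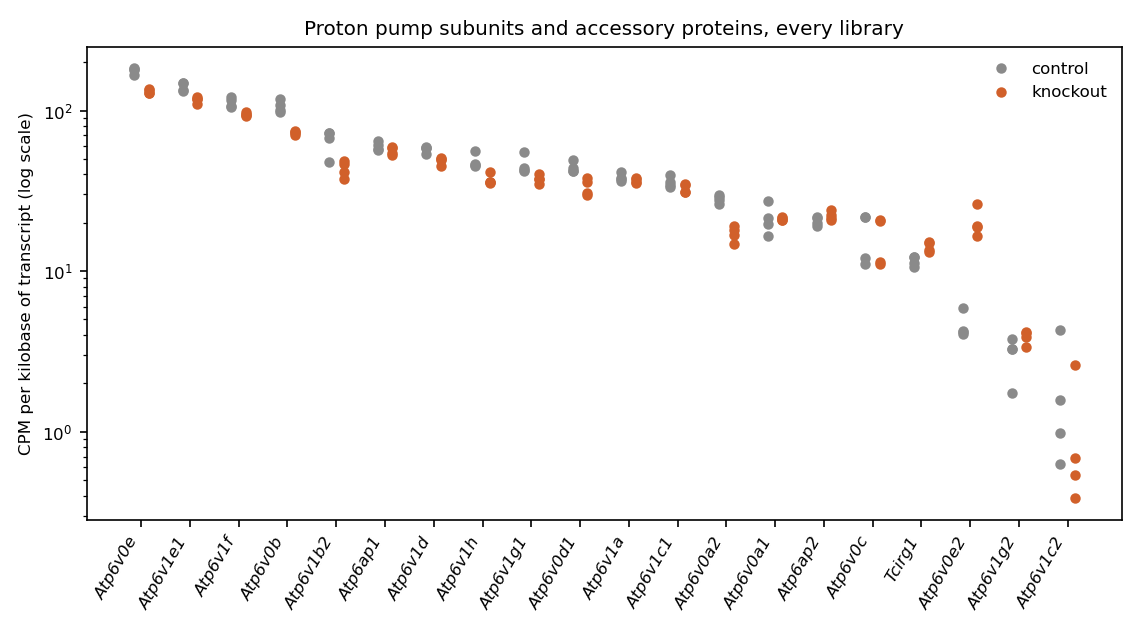
Level of each tested pump and accessory gene, with Tcirg1, in every library as CPM per kilobase of transcript on a log axis, ordered by the mean; grey points are controls and orange points knockouts. Most subunits are lower in the knockout column, Atp6v0e2 moves from 4.05 to 5.89 up to 16.6 to 26.1, and Atp6v0c splits into 2 levels in both groups.

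The accessory proteins ATP6AP1 and ATP6AP2, which help the pump assemble, showed no called difference. Atp6ap1 had 131, 123, 124 and 139 CPM in controls and 115, 117, 127 and 129 in knockouts (log2 fold change -0.083 ± 0.069, edgeR adjusted p = 0.38). Atp6ap2 had 46.6, 44.6, 51.2 and 49.9 CPM in controls and 48.7, 50.2, 52.2 and 56.5 in knockouts (log2 fold change 0.11 ± 0.074, edgeR adjusted p = 0.273). In both genes the libraries of the groups were interleaved, and with library sizes alone Atp6ap2 was called higher (edgeR adjusted p = 0.0171).

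Of the 12 cathepsins tested, 2 were called higher and 1 lower. That is 16.7% higher, close to the 15.5% of all tested genes, and 8.33% lower beside 18.9%. The median log2 fold change was 0.33, with 9 of the 12 values above 0. Ctsd (chr7:142375916-142387870), the aspartic protease of the lysosome, had 2090, 1659, 2080 and 1871 CPM in controls and 1399, 1290, 1379 and 1521 in knockouts. Every knockout was below the lowest control, 514, and the log2 fold change was -0.46 ± 0.096 (edgeR adjusted p = 0.00656). Another gene model, Gm49369, which is not in the table analysed, covers 31.5% of its exon bases on the same strand. Ctsa (chr2:164832873-164841032) encodes a serine carboxypeptidase that also stabilizes the sialidase NEU1 and beta-galactosidase. It had 128, 119, 119.7 and 113 CPM in controls and 139, 152, 158 and 178 in knockouts. The groups did not overlap, and the log2 fold change was 0.39 ± 0.084 (edgeR adjusted p = 0.00772). Of its exon bases 22.3% lie opposite Neurl2 and Pltp, whose own levels were higher in the knockout: Pltp, a phospholipid transfer protein gene, had a log2 fold change of 0.66 (76.8 ± 18.5 CPM in controls and 121 ± 23.4 in knockouts, edgeR adjusted p = 0.0242, lost without control 514 or knockout 515 or 516, at adjusted p = 0.0502, 0.0548 and 0.0674), and Neurl2 one of 0.57 (edgeR adjusted p = 0.01). Reads of the opposite genes cannot be told apart from those of Ctsa in that stretch.

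Ctso (chr3:81932616-81956725), a cysteine cathepsin, had 33.4, 31.4, 37.5 and 36.3 CPM in controls and 47.9, 50.9, 54.7 and 56.2 in knockouts. Its knockout values were all above the highest control, with a log2 fold change of 0.60 ± 0.081 (edgeR adjusted p = 0.000997). Ctsb, a cysteine protease and the most abundant cathepsin after Ctsd per kilobase, had 2314, 1984, 2181 and 1843 CPM in controls and 1858, 1619, 1710 and 1879 in knockouts. Control 518 lay among the knockouts, and the log2 fold change of -0.24 ± 0.094 did not pass (edgeR adjusted p = 0.0805). With sample weights limma-voom called Ctsb lower (adjusted p = 0.0322). Of Ctsb exon bases 16.3% lie opposite Fdft1, where counting without strand adds reads of that gene. Ctsd and Ctsb together made up 79.1 ± 3.40% of summed cathepsin transcript per kilobase in controls and 72.9 ± 0.789% in knockouts. The sum itself was 1814 ± 150 CPM per kilobase in controls and 1504 ± 87.1 in knockouts. Its groups overlapped, with control 514 at 1601 below knockout 516 at 1615. The mean sum was lower, while most single cathepsins had log2 fold changes above 0.

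The other cathepsins were not called, at log2 fold changes of 0.58 for Ctsc, 0.49 for Ctss, 0.38 for Ctsh, 0.35 for Ctsk, 0.30 for Ctsf, 0.23 for Ctsw, 0.18 for Ctsl and -0.15 for Ctsz. Ctsc, which activates proteases of immune cells, stands at a log2 fold change of 0.57 and an FDR of 0.0445 in the authors' deposited table. In edgeR it missed the threshold (adjusted p = 0.0683) and passed without control 511 (adjusted p = 0.0335). Likewise Ctsf passed without control 514 (edgeR adjusted p = 0.0175) and Ctsl without control 518 (0.0186). Of Ctsl exon bases 28.2% lie opposite Gm47123. With upper quartile factors 5 cathepsins were called higher and with library sizes alone 7, with 1 lower in each. Over all tested genes these settings called 20.6% and 28.8% higher, and 11.4% and 6.53% lower. The 14 tested macrophage markers had a median log2 fold change of 0.57. All 15 markers found summed to 196, 130, 235 and 201 CPM in controls and 228, 245, 275 and 338 in knockouts. The lowest knockout sum lay below the highest control sum. The part of macrophages in the cathepsin values was not tested.

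Lysosomal membrane proteins gave 2 lower calls and none higher among 7 tested (28.6% lower, beside 18.9% of all tested genes). Lamp1, the most abundant of them per kilobase, had 649, 619.6, 749.9 and 825 CPM in controls and 601, 564, 546 and 607 in knockouts. Controls 517 and 518 were high, and the gap between the lowest control and the highest knockout was small (log2 fold change -0.29 ± 0.10, edgeR adjusted p = 0.0477). Scarb2, whose product carries glucocerebrosidase to lysosomes, had 95.9, 86.2, 91.2 and 107 CPM in controls and 80.4, 80.3, 72.9 and 71.4 in knockouts, without overlap (log2 fold change -0.32 ± 0.082, edgeR adjusted p = 0.0166). Laptm4a, a small protein with several membrane spans, had 398, 409, 404 and 416 CPM in controls and 409, 398, 439 and 438 in knockouts, with overlapping groups (log2 fold change 0.050 ± 0.063, edgeR adjusted p = 0.571).

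Both membrane protein calls were lost when knockout 516 was left out (in edgeR, adjusted p = 0.0753 for Lamp1 and 0.0508 for Scarb2), and that of Lamp1 also without control 517 or 518 or knockout 512, 513 or 515 (0.101, 0.139, 0.0697, 0.11 and 0.119). With upper quartile factors or library sizes alone neither was called, and Lamp1 also missed the threshold with relative log expression factors (edgeR adjusted p = 0.0643). Laptm5 (0.50 ± 0.28, edgeR adjusted p = 0.201) was called higher without control 517 (adjusted p = 0.00777), the library in which it was highest among controls at 25.1 CPM. Lamp2, which serves chaperone-mediated autophagy and fusion with autophagosomes, was not called in the row of 3584 bases used here (log2 fold change -0.17 ± 0.079, edgeR adjusted p = 0.133). Its other row, of 1749 bases, was at 110 ± 21.8 CPM in controls and 79.6 ± 3.22 in knockouts, a log2 ratio of means of -0.47 that was not tested; the transcripts share exons, so the rows hold reads in common. Lamp3 (-0.24) and Laptm4b (-0.099) were not called.

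None of the 3 transcription factor genes was called, although with library sizes alone Tfeb was called higher (edgeR adjusted p = 0.0281). Tfeb had 24.5, 23.1, 24.1 and 24.4 CPM in controls and 27.5, 24.5, 24.5 and 23.4 in knockouts, and its groups overlapped (log2 fold change 0.057 ± 0.074, edgeR adjusted p = 0.582). Tfe3 had 56.7, 51.2, 55.9 and 47.8 CPM in controls and 46.3, 50.5, 50.8 and 49.3 in knockouts (log2 fold change -0.10 ± 0.073, edgeR adjusted p = 0.301). Mitf, also the regulator of pigment cells, had 8.42, 8.34, 6.34 and 11.4 CPM in controls and 11.6, 9.67, 9.19 and 8.37 in knockouts (log2 fold change 0.17 ± 0.18, edgeR adjusted p = 0.496). In each gene the libraries of both groups were interleaved. Per kilobase Tfe3 was the highest of them, at 16.3 ± 1.28 CPM per kilobase in controls, then Tfeb at 10.4 ± 0.272 and Mitf at 1.77 ± 0.427, and these control ranges did not overlap. The 8 melanocyte markers summed to 6.38 to 7.99 CPM in controls and 5.57 to 7.41 in knockouts, 2 of them could be tested and neither was called, and Tyr and Oca2 were at 0 in every library. The part of pigment cells in the Mitf values was not tested. Transcript level does not show how much of these proteins was in the nucleus.

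The 12 untested genes were at or near 0. Atp6v1e2, Atp6v1g3, Ctsj, Ctsm, Ctsq and Ctsr had no count in any library, which at 3 counts allows up to 0.112 to 0.132 CPM per library. Atp6v1b1, Atp6v0a4, Atp6v0d2, Atp6ap1l, Ctse and Ctsg were detected, with at most 0.528 CPM in any library. Among them are pump forms known from kidney (Atp6v1b1, Atp6v0a4) and osteoclasts (Atp6v0d2) and cathepsins known from placenta (Ctsj, Ctsm, Ctsq, Ctsr).

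Genes that mature or assist the pump moved in both directions. Of 12 tested V-ATPase partners, 3 were higher and 4 lower (median log2 fold change -0.13). Vma21 and Tmem199, which help the V0 domain assemble in the endoplasmic reticulum, were lower, at -0.32 ± 0.083 (edgeR adjusted p = 0.017) and -0.47 ± 0.081 (adjusted p = 0.00293). Tcirg1 was higher, with 29.8, 32.2, 32.5 and 28.2 CPM in controls and 35.7, 34.8, 40.02 and 39.7 in knockouts (log2 fold change 0.29 ± 0.079, edgeR adjusted p = 0.0198). The Tcirg1 call was lost without knockout 515 or 516 (edgeR adjusted p = 0.0603 and 0.0602). That of Vma21 was lost without knockout 513 (edgeR adjusted p = 0.0515), under upper quartile factors (0.0768) and with library sizes alone (0.232). With library sizes alone 3 partners were higher and 1 lower, and their median was 0.065.

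Calls among other lysosomal enzymes lay in both directions. Among 20 tested glycosidases, 4 were higher and 1 lower (median 0.20, 8 higher and none lower with upper quartile factors). The fucosidase gene Fuca1 had a log2 fold change of -0.32 ± 0.078 (edgeR adjusted p = 0.0128). It was not called with upper quartile factors (edgeR adjusted p = 0.056) or with library sizes alone (0.26). The chitobiase gene Ctbs rose by 0.41 (edgeR adjusted p = 0.0196), a call lost without knockout 513 or 516 (adjusted p = 0.0573 and 0.0523). Sulfatases, lipases, phosphatases and other hydrolases gave 5 higher and 5 lower calls among 29, which is 17.2% in each direction and close to the 15.5% and 18.9% of all tested genes (median -0.034, positive at 0.071 with upper quartile factors, with 8 higher and 2 lower). Prcp, a carboxypeptidase, rose from 13.7 ± 2.63 to 25.95 ± 3.55 CPM (log2 fold change 0.92 ± 0.15, edgeR adjusted p = 0.00245), Ggh, which trims folate polyglutamates, by 0.59 (adjusted p = 0.00227) and the iduronate sulfatase gene Ids by 0.42 (adjusted p = 0.00138). Of 8 tested cathepsin inhibitors 2 were higher and none lower: Serpinb6a, a serpin, went from 35.5 ± 7.96 to 86.5 ± 5.84 CPM (log2 fold change 1.28 ± 0.15, edgeR adjusted p = 0.000529, with 26.8% of exon bases opposite other genes), and the cystatin gene Cst6 from 0.397 ± 0.155 to 1.36 ± 0.29 (adjusted p = 0.00304).

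Channels, transporters and other lysosomal membrane proteins gave 7 higher and 5 lower calls among 30 (median -0.061, positive at 0.043 with upper quartile factors, with 8 higher and 3 lower). The tetraspanin gene Cd63 rose from 13.8 ± 1.78 to 31.4 ± 2.94 CPM (log2 fold change 1.18 ± 0.11, edgeR adjusted p = 0.000263), with all knockouts above all controls. The peptide transporter gene Abcb9 had a log2 fold change of -0.59 ± 0.11 (edgeR adjusted p = 0.00389) and Tmem192 one of -0.35 ± 0.064 (adjusted p = 0.00369; not called with library sizes alone, 0.0944). Genes of mannose 6-phosphate tagging and lysosomal sorting were lower for 10 of 25 and higher for 1 (median -0.23; 6 lower with upper quartile factors and 3 with library sizes alone). Vps33a, of the vesicle tethering complexes, fell by 0.48 (edgeR adjusted p = 0.00151) and Ap3d1, of the AP-3 coat, by 0.59 (adjusted p = 0.00165), whereas Hps1, of lysosome-related organelle assembly, rose by 0.62 (adjusted p = 0.00185).

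The list of genes that control TFEB and TFE3 at the lysosome holds mTORC1, the Rag GTPases, Ragulator and folliculin. It also holds inhibitors of mTORC1, among them Tsc1, Tsc2, Depdc5, Nprl2, Nprl3, Deptor and Akt1s1. Of its 27 tested genes, 10 were lower and 3 higher (median -0.17). These counts mix activators and inhibitors, so they give no direction for mTORC1 activity. Upper quartile factors called 9 lower and 3 higher. Unscaled library sizes called 5 lower and 5 higher and put the median at 0.023. Mtor itself, the kinase, had 260.1, 255, 346 and 316 CPM in controls and 162, 141, 135 and 121 in knockouts. The groups lay far apart, with a log2 fold change of -1.08 ± 0.12 (edgeR adjusted p = 0.000522). Lamtor1, which anchors Ragulator to the lysosome, had a log2 fold change of -0.71 ± 0.074 (edgeR adjusted p = 0.000362). The Rag GTPase gene Rragb went up, from 4.83, 5.91, 4.75 and 6.71 CPM in controls to 17.2, 15.8, 15.2 and 15.96 in knockouts (log2 fold change 1.53 ± 0.13, edgeR adjusted p = 0.000157). With TMM factors the counts of these lists are to be read beside the 15.5% higher and 18.9% lower of all tested genes. Their medians are to be read beside -0.012. With upper quartile factors all tested genes were 20.6% higher and 11.4% lower, with a median of 0.091. With library sizes alone they were 28.8% higher and 6.53% lower, with a median of 0.19.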

How the data were processed

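RNA was sequenced from 8 brown fat samples, 4 per group. The authors aligned the reads with TopHat version 2 (mm10 build) and counted them with HOMER over RefSeq exons on both strands without adjustment, per the series' design text and the file headers. The deposited table of estimated counts has 30521 rows, and 36.9% of its values are not whole because they come in multiples of a fraction; they were rounded. The 829 rows without a gene symbol hold 0.0608 to 0.0824% of the counts and were left out. A second deposited table holds the authors' own comparison, per the file headers: counts rescaled by the authors (signal), a fold ratio, log2 fold changes, p-values and FDR, with edgeR settings not given in the sources used here.

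The main test was edgeR 4.0.16 (R 4.3.3): TMM factors, filterByExpr with a minimum count of 10, the quasi-likelihood test, two-sided, and Benjamini-Hochberg adjustment over 14186 genes at 0.05. SE is the log2 fold change divided by the square root of F. DESeq2 1.42.0 and limma 3.58.1 (voom with sample weights) were alternatives, beside other scalings, no filter, the longest transcript row and leaving out each library. The fit was tested on simulated data. CPM per kilobase divides by the deposited transcript length. Exon overlaps come from GENCODE vM21 (mm10 coordinates). Correlations of log2 CPM were 0.963 to 0.991 within groups and 0.942 to 0.972 between them, and no 2 libraries of the same group matched within counting noise. Nothing says that libraries came from separate animals, so p-values measure only the spread between these samples, which may be technical. Named genes were the 3 transcription factors, up to 6 called members of smallest p and the 2 highest per kilobase in each role, and up to 3 called genes of each of 7 companion lists, with 11 marker lists; 1 gene that this rule names is not reported here. The members, lists and tests were chosen with earlier results of these data known.

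Besides those in the report, marker lists gave these calls (higher and lower of those tested): neutrophils and mast cells 1 and 1 of 8, lymphocytes 0 and 0 of 10, melanocytes 0 and 0 of 2, fibroblasts and preadipocytes 2 and 0 of 12, endothelium 2 and 0 of 11, smooth muscle and pericytes 0 and 1 of 10, Schwann cells and nerve 2 and 0 of 9, and erythroid cells 0 and 0 of 6. These counts are to be read beside the 15.5% higher and 18.9% lower of all tested genes.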

Additional observations from a re-analysis of the deposited data

Results flagged for a closer look

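In 84 groups of 4 libraries (42 genes in 2 groups), 6 had a highest library whose gap to the next was a larger share of the group's range than Dixon's 95% critical value for 4 samples; chance flags about 1 group in 20. Atp6v1c2 was at 4.01 CPM in knockout 512 and 0.591 to 1.05 in the other knockouts. Atp6v1g1 was at 59.6 CPM in control 511 and 45.7 to 47.7 in the other controls. Atp6v1h was at 108 CPM in control 518 against 88.1 to 90.7, and at 80.6 CPM in knockout 516 against 69.2 to 70.1. Atp6v0e2 was at 10.8 CPM in control 511 and 7.40 to 7.78 in the other controls, all far below the knockouts. Ctsw was at 0.969 CPM in control 517 and 0.279 to 0.351 in the other controls.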

How the results depend on the processing

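The 13 lower and 3 higher calls became 6 and 6 with upper quartile factors and 4 and 11 with library sizes alone; DESeq2 gave 13 and 5. Relative log expression factors, no filter, limma-voom and the longest row gave 12 to 14 lower and 3 to 4 higher. Leaving out each library gave 9 to 12 lower and 3 to 4 higher. Of 630 recomputed values of single genes, 542 kept direction and side of the threshold, 35 lost a call, 19 gained one and 34 changed sign, none of the last among the 16 called genes. With upper quartile factors the log2 fold change turned positive for Atp6v1a (0.045), Atp6v0a1 (0.10), Atp6v0c (0.044), Atp6v0c-ps2 (0.047), Atp6ap1 (0.021) and Laptm4b (0.00397). With library sizes alone it did so for Atp6v1a (0.14), Atp6v1c1 (0.077), Atp6v0a1 (0.20), Atp6v0c (0.14), Atp6v0c-ps2 (0.14), Atp6ap1 (0.11), Ctsz (0.037), Lamp2 (0.031), Laptm4b (0.10) and Tfe3 (0.097). Atp6v0a1 was also positive with relative log expression factors (0.012), DESeq2 (0.012) and limma-voom (0.038). Leaving out 1 library gave ranges of -1.81 to 0.0014 for Atp6v1c2, -0.11 to 0.14 for Atp6v0a1, -0.21 to 0.091 for Atp6v0c, -0.24 to 0.11 for Atp6v0c-ps2, -0.28 to 0.073 for Ctsz and -0.42 to 0.015 for Lamp3. For the scalings the cause lies in their construction, a shift of all genes by up to 0.20; for the others the cause was not tested. No paired analysis was possible because the groups share no replicate numbers. Depth left out the 12 genes with at most 0.528 CPM in any library.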
